A study of Mus musculus with 8 samples.

Results

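The genes described here build the contacts by which neighbouring cells hold together, seal the space between them and exchange small molecules. They were chosen by name: numbered claudins (Cldn), numbered cadherins (Cdh), connexins (Gja to Gjd), the zonula occludens genes (Tjp), the alpha-, beta- and delta-catenins (Ctnna, Ctnnb, Ctnnd), Ocln and F11r. Of 23284 gene rows in the deposited counts, 79 carry such a name, and 46 of these reached 0.5 CPM (counts per M reads of the library) in at least 4 of the 8 libraries and are described. They are 15 of 26 claudins, 13 of 23 cadherins, 6 of 6 catenins, 7 of 19 connexins and all 5 of the zonula occludens group with Ocln and F11r. Of the 33 rows below that level, 7 had no read in any library and 14 never reached 0.5 CPM. Just inside the limit, with exactly 4 libraries, stood Cldn5 and Gja5, and just outside it, with 3, stood 7 genes, among them Cdh9, Cdh12, Cdh17, Cldn15, Cldn19 and Gjc3.

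RNA came from mouse pancreas at embryonic day 17 (strain given as C56BL/J), from cells sorted for the Tomato reporter that Neurog3-Cre switches on in endocrine precursors and their descendants. In the KO group both Neurod1 alleles were floxed (Neurod1floxed/floxed; replicates 8, 9, 17 and 24), and in the Het group 1 allele was floxed and 1 wild type (Neurod1floxed/wt; replicates 6, 7, 13 and 19). All 8 libraries carried Neurog3Cre+ and RosaTomato+, so the Het cells are also a Cre line with a floxed allele, and the floxed sequence is removed where that Cre is active. Neurod1 encodes a transcription factor of the basic helix-loop-helix family that endocrine cells use to mature. The labels do not say whether libraries came from separate animals, so p-values measure the spread between these libraries, which may be partly technical. Library totals ran from 10.35 to 16.1 M counts. Neurod1 itself stood at 2.55, 12.9, 22.2 and 21.5 CPM in KO replicates 8, 9, 17 and 24, and at 133, 138, 141 and 210 CPM in Het replicates 6, 7, 13 and 19. Values per library are given in that order throughout. The endocrine marker Chga was present in every library, at 576 to 1397 CPM in KO and 1069 to 1581 in Het. KO replicate 8 stood apart: its summed level of 8 mesenchyme markers was 8857 CPM against 250 to 1107 in the other 7 libraries, and its summed leukocyte markers reached 440 CPM, with 240 CPM in KO replicate 9 and 19.9 to 65.4 in the other 6. Values of Cdh11, Cldn1, Gjc1, Gja1 and Zeb2, which were highest there, are given with and without it. Over all genes tested KO replicate 8 was the lowest library in 20.9% and the highest in 22.7%. Het replicate 6 was nearly as extreme, at 20.4% and 18.4%, and each other library reached at most 11.6%. It also had the fewest genes with a read, 15443 against 16218 to 16538, so its low counts are read with that limit. The 4 Y-linked genes summed to 414 to 497 CPM in KO replicates 8, 9 and 24 and Het replicate 7, and to 0.309 to 0.442 CPM in the rest.

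Tight junctions are strands of claudins and occludin in the membrane, tied to the actin skeleton by zonula occludens scaffolds. Which claudins a cell makes sets whether the seal is tight or lets chosen ions through. Adherens junctions are held by cadherins, which bind their like on the next cell and are anchored inside by beta-, alpha- and delta-catenins. Connexins assemble into gap junction channels, through which beta cells in islets share electrical activity and calcium waves. Islet cells are known for E-cadherin, N-cadherin and the connexin Gjd2.

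Ranked by CPM per kilobase of transcript, so that genes of different length can be compared, Ctnnb1 (beta-catenin) led. It averaged 354 CPM per kilobase over the 8 libraries, and among the other catenins Ctnna1 averaged 65.7, Ctnnd1 58.1 and Ctnnd2 3.44. Among cadherins Cdh1 (E-cadherin) averaged 130 CPM per kilobase and Cdh2 (N-cadherin) 17.5, with Cdh1 the higher in 8 of 8 libraries. Cldn6, a claudin of embryonic epithelia, led the claudins at 110 CPM per kilobase and was above the next, Cldn7 at 40.3, in 8 of 8 libraries. Below it the order was less sharp, since Cldn7 exceeded Cldn11 (37.3) in 6 of 8 libraries, Cldn12 (16.4) exceeded Cldn3 (15.1) in 5, and Cldn4 (7.83) exceeded Cldn2 (6.67) in 4. Gjd2 was the leading connexin at 64.4 CPM per kilobase, above Gja1 (5.70) in every library. F11r, the junctional adhesion molecule of epithelia, and Tjp1 stood close together at 50.4 and 48.7, and F11r was the higher in only 2 of 8 libraries.

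**Figure D1:**
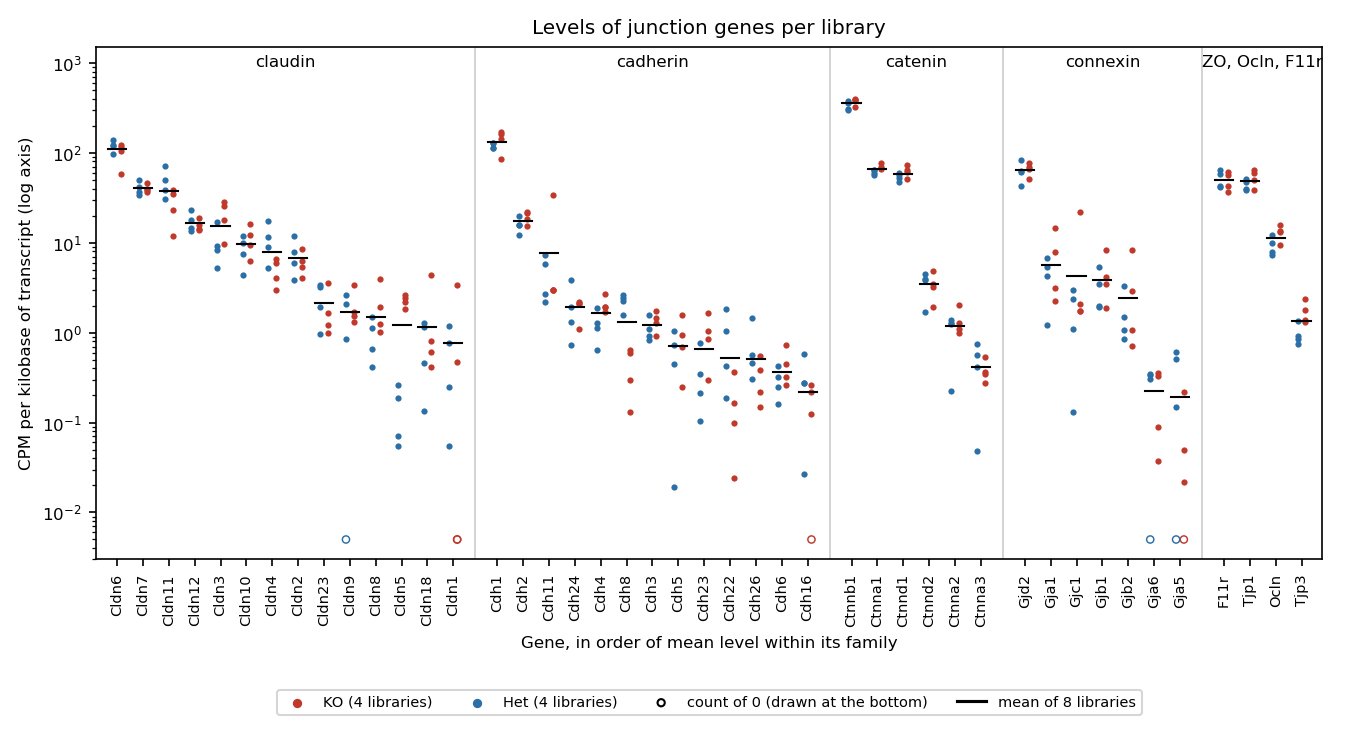
CPM per kilobase of transcript (log axis) of 44 described genes with a known transcript length, by family and in order of mean level, with 4 KO libraries in red, 4 Het libraries in blue, bars for the mean of 8 and open circles for a count of 0. Ctnnb1, Ctnna1, Ctnnd1, Cdh1, Cldn6 and Gjd2 lie high, Ctnna2 and Ctnna3 lie low, Cldn5 and Cdh8 separate by colour, and genes near the bottom scatter widely.

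The abundant members varied least. The maximum was under 2-fold above the minimum for 11 of the 46 genes, and over 10-fold above it, or above a count of 0, for 16. Across the 8 libraries the coefficient of variation was 8.97% for Ctnna1, 10.6% for Ctnnb1 and 13.4% for Cldn7, against 170% for Gjc1, 149% for Cldn1 and 142% for Cdh11, the genes most raised in KO replicate 8.

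The comparison of KO with Het asks how loss of the second Neurod1 allele moves these genes. By edgeR, Cldn5 was the member that rose, from near absence to a low level, and none fell past the threshold. Cldn5 met the 0.5 CPM minimum through its KO libraries alone, so its call and its lack of overlap are tied to how it was chosen. The call was lost on leaving out any library other than KO replicate 8. DESeq2 called Cldn5 higher and Cdh8 lower among 45 members, and it called 3.72% of all genes. Limma-voom with quality weights called those 2 and also Cldn3 higher among 43, and it called 3.54% of all genes. Of the 43 members that entered the test over 14116 genes (Cdh16, Gja5 and Gja6 were too low), 1 was called at an adjusted p under 0.05 by edgeR's quasi-likelihood test with Benjamini-Hochberg adjustment, against 1.02% of all genes. Higher calls made up 0.34% of all genes and lower calls 0.68%. At an unadjusted p under 0.05 there were 7 members, 3 higher (Cldn5, Cldn3, Ocln) and 4 lower (Cdh8, Cdh22, Cldn4, Cldn11), which is 16.3% against 12.2% of all genes (6.35% higher and 5.8% lower). Groups did not overlap for 3 members (Cldn5, Cdh8, Ctnna1), or 6.98%, against 8.03% of all genes (3.55% with KO higher and 4.48% with KO lower). The log2 fold change of KO over Het was positive for 29 members and negative for 14, with a median of 0.28 against 0.03 over all genes tested. Without KO replicate 8 the median was 0.18, Cldn5 was higher and Cdh8 lower at an adjusted p under 0.05, and 1.99% of all genes were called (0.678% higher and 1.31% lower). In these sorted bulk samples, fewer cells of a type and less RNA per cell cannot be told apart.

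**Figure D2:**
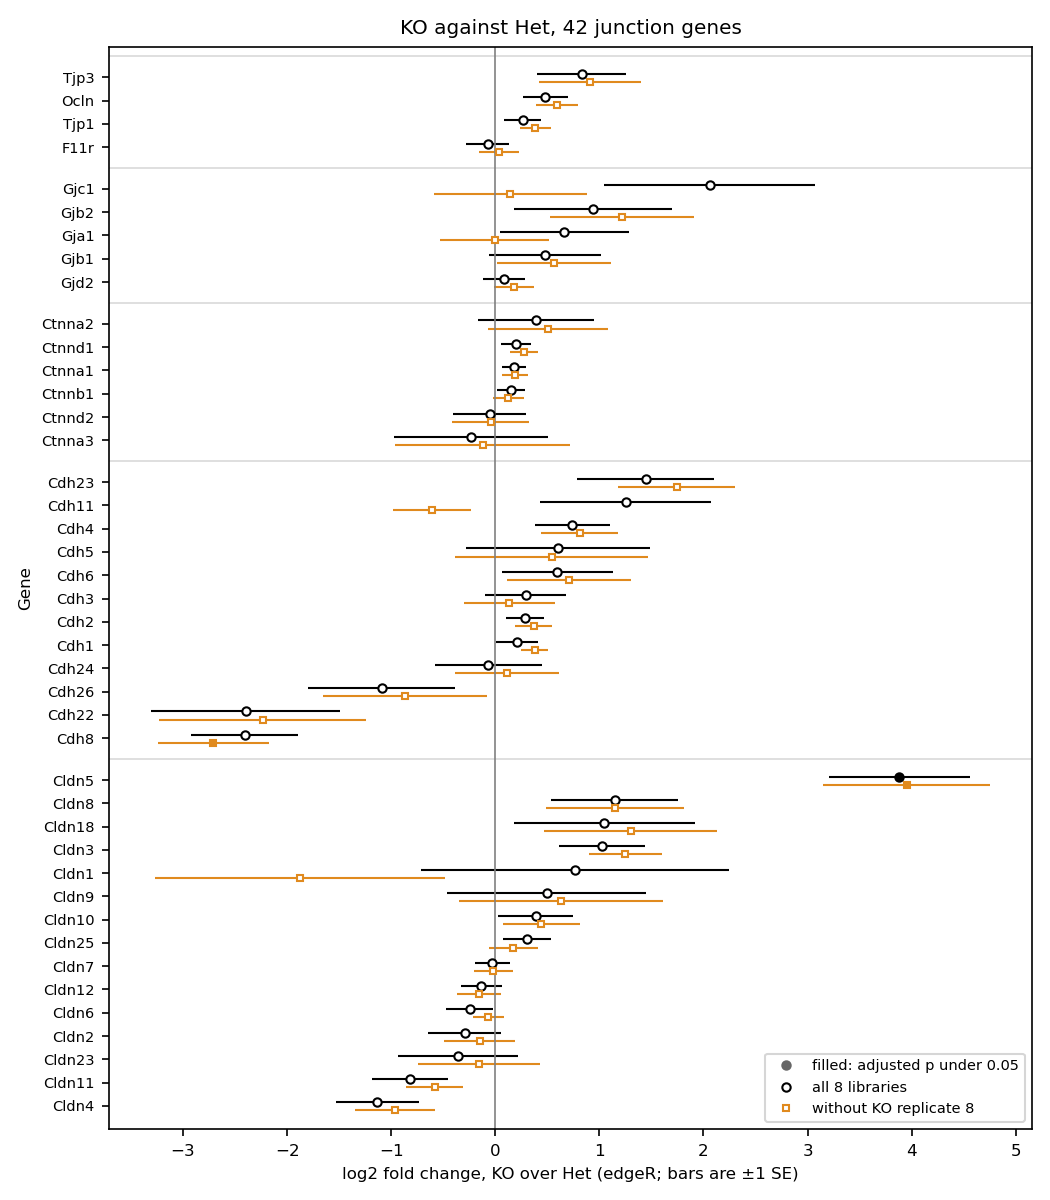
Log2 fold change of KO over Het for 42 of the 43 tested genes by family, with bars of 1 SE, for all 8 libraries (black circles) and without KO replicate 8 (orange squares), filled where the adjusted p is under 0.05. Cldn5 lies at the right and Cdh8 and Cdh22 at the left, while Cdh11 and Cldn1 change side and Gjc1 and Gja1 move close to 0 when that library is left out.

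Among the claudins, Cldn5 is a sealing claudin best known from endothelium. It stood at 2.62, 3.75, 3.09 and 3.41 CPM in KO and at 0.0772, 0.371, 0.265 and 0.101 CPM in Het, from counts of 36, 47, 41 and 38 against 1, 6, 3 and 1. Every KO library lay far above every Het library. The means were 3.22 ± 0.48 CPM (SD, n = 4) in KO and 0.204 ± 0.139 in Het, and the pooled counts gave a 14.6-fold ratio with an exact 95% interval of 7.96 to 29.9, which covers counting error only. The fitted log2 fold change was 3.88 ± 0.68 (SE), with an edgeR adjusted p of 0.0311. Cldn5 met the 0.5 CPM minimum through its KO libraries alone, so its place among the described genes is tied to this difference. The call was lost on leaving out any library other than KO replicate 8, at adjusted p values of 0.0763 to 0.117, with log2 fold changes of 3.61 to 4.35. It was also lost with no filter on low counts (adjusted p = 0.0547) and with a Y-linked covariate (adjusted p = 0.118, log2 fold change 3.69). Among the libraries with high Y-linked levels Cldn5 was 2.62 to 3.75 CPM in KO and 0.371 in Het replicate 7, and among those with low levels it was 3.09 in KO replicate 17 and 0.0772 to 0.265 in Het.

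Other endothelial genes are given beside it, and their part in the Cldn5 values was not tested. The summed level of 7 endothelial markers was 22.4, 18.2, 4.75 and 13.7 CPM in KO and 10.1, 11.7, 8.21 and 10.1 CPM in Het. KO replicate 17 was the lowest of all 8, and its Cldn5 level was 3.09 CPM. Tek, an endothelial receptor too low for the edgeR test, read 6.19, 1.83, 1.43 and 0.629 CPM in KO and 0.232, 0.247, 0.442 and 0.811 in Het, with 1 KO library below the highest Het library. Emcn, a surface protein of vein and capillary endothelium and also untested, read 1.31, 1.12, 0.0754 and 2.25 CPM in KO and 0, 0.185, 0.442 and 0.507 in Het, higher in KO except in replicate 17. None of the 4 endothelial markers tested was called by edgeR, 0 had an unadjusted p under 0.05, and DESeq2 and limma-voom called 0. Of these 4, Esam had the smallest p and was lower in KO, with overlap between the groups (log2 fold change -0.99, edgeR adjusted p = 0.619). The other 3 had positive log2 fold changes, from 0.11 to 0.94, so the tested markers did not all move the same way. Cdh5, the cadherin of endothelial junctions, read 3.72, 6.22, 0.980 and 2.79 CPM in KO and 0.0772, 4.20, 1.77 and 2.94 in Het, so the groups overlapped. The log2 fold change of Cdh5 was 0.60 (edgeR adjusted p = 0.833). Gja5, a connexin of arterial endothelium, was at most 0.801 CPM in KO and 2.23 in Het and was too low for the test, and Gja4, another, had counts of 0, 14, 0 and 0 against 4, 0, 10 and 1.

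Cldn3 and Cldn4 are barrier-forming claudins of simple epithelia whose genes are neighbours on chromosome 5. Cldn3 read 12.2, 22.3, 35.3 and 32.4 CPM in KO and 6.57, 11.7, 10.5 and 21.5 in Het. KO replicates 9, 17 and 24 were above every Het library, and KO replicate 8 was within the Het range. Its log2 fold change of 1.03 ± 0.41 did not pass the edgeR threshold (adjusted p = 0.354), while limma-voom with quality weights gave 1.26 and an adjusted p of 0.0439. Cldn4 read 5.39, 7.34, 12.1 and 10.8 CPM in KO and 9.50, 16.2, 21.1 and 31.4 in Het, so the lowest Het library fell among the KO values. The log2 fold change of Cldn4 was -1.13 ± 0.40 (edgeR adjusted p = 0.278). Duct cells also make these claudins. The summed level of 6 duct markers was 510 to 606 CPM in KO and 346 to 527 in Het, and of these markers Cftr, the chloride channel of duct epithelium, rose (log2 fold change 2.23, edgeR adjusted p = 0.0426). Their part in the claudin values was not tested.

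Cldn11, known from myelin and the testis, read 21.9, 42.9, 64.2 and 72.7 CPM in KO and 92.5, 134, 72.9 and 57.0 in Het, with overlap between 57.0 and 72.7. Its log2 fold change was -0.82 ± 0.36 (edgeR adjusted p = 0.403). Cldn6, the most abundant claudin, read 93.6, 170, 198 and 190 CPM in KO and 200, 224, 155 and 193 in Het, a log2 fold change of -0.25 ± 0.22 (edgeR adjusted p = 0.700). KO replicate 8 was the low library there. Cldn12 had a log2 fold change of -0.14 ± 0.20 and Cldn7 of -0.03 ± 0.17. Cldn25 is listed as a symbol of its own, but RefSeq gives it as a synonym of both Cldnd1 and Cldn25-ps, so which gene its counts belong to is unclear (log2 fold change 0.30 ± 0.23). Cldn1, a claudin of the skin barrier, was at 11, 0, 0 and 1.53 CPM in KO and 3.86, 2.47, 0.177 and 0.811 in Het, high in KO replicate 8 and at 0 in replicates 9 and 17. Cldn1 had a log2 fold change of 0.77 with all libraries and -1.87 without KO replicate 8, and neither passed. The remaining 6 claudins (Cldn2, Cldn8, Cldn9, Cldn10, Cldn18, Cldn23) had log2 fold changes from -0.36 to 1.15 and none was called.

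**Figure D3:**
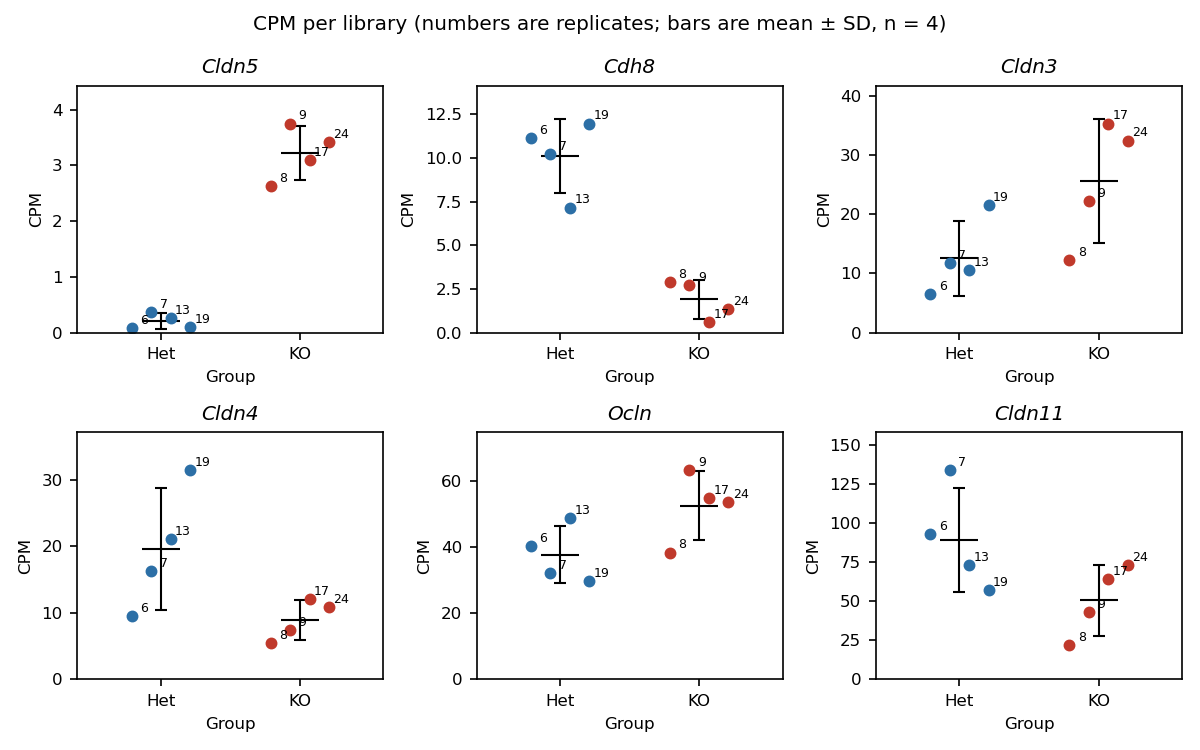
CPM in each library, labelled by replicate, for 6 members with an unadjusted p under 0.05, with bars for mean ± SD (n = 4 per group). Cldn5 and Cdh8 have no overlap between KO and Het, whereas Cldn3, Cldn4, Ocln and Cldn11 have libraries of one group among those of the other.

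Among the cadherins, Cdh8 differed most. Cdh8 is a type II cadherin known for sorting neurons and their synapses. It read 2.91, 2.71, 0.603 and 1.35 CPM in KO and 11.1, 10.2, 7.15 and 12 CPM in Het. Every KO library was below every Het library. At -2.41 ± 0.52 its log2 fold change missed the threshold, with an edgeR adjusted p of 0.0608. Without KO replicate 8 it was -2.71 ± 0.53 and passed (edgeR adjusted p = 0.0231). The authors' deposited table gives Cdh8 an adjusted p of 0.0135, the single member it calls among 184 genes of 18760, and gives Cldn5 an adjusted p of 0.131. Among libraries with low Y-linked levels Cdh8 was 0.603 CPM in KO replicate 17 and 7.15 to 12 in Het, and among the rest it was 1.35 to 2.91 in KO and 10.2 in Het replicate 7. Cdh22, a cadherin of brain and pituitary, read 0.364, 1.36, 0.603 and 0.0898 CPM in KO and 0.695, 3.89, 1.59 and 6.79 in Het, which overlapped. Cdh22 had a log2 fold change of -2.40 ± 0.91 (edgeR adjusted p = 0.322).

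Printed below are the 250 bases upstream of the annotated start of the 4 genes above, because Neurod1 binds the E-box CANNTG. A match to this pattern on either strand is also a match on the other, though its middle letters can differ. The printed bases are RefSeq sequences of the mouse assembly GRCm38.p6, with any CANNTG in capitals. Cldn5 is at chr16:18776597-18776846 on the plus strand, Cldn3 at chr5:134985964-134986213 on the plus strand, Cldn4 at chr5:134946935-134947184 on the minus strand and Cdh8 at chr8:99416472-99416721 on the minus strand.
Cldn5: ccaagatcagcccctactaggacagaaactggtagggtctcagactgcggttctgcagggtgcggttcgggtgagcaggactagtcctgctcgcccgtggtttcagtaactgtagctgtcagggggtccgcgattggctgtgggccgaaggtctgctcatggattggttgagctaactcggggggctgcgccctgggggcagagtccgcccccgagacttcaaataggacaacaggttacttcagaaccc
Cldn3: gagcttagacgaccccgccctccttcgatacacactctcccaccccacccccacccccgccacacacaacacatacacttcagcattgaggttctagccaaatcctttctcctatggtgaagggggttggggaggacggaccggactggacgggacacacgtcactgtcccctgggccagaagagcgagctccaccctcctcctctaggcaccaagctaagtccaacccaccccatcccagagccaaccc
Cldn4: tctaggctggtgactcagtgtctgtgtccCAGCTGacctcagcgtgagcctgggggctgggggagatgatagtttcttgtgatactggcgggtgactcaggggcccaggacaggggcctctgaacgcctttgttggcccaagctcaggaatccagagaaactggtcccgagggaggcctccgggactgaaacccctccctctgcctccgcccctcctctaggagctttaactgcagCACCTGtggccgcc
Cdh8: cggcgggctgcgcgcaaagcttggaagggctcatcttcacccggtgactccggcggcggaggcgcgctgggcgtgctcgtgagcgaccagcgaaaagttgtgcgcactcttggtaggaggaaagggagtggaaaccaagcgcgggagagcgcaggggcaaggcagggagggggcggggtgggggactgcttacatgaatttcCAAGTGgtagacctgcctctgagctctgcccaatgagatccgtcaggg
The windows of Cldn5 and Cldn3 hold no CANNTG. Cldn4 holds CAGCTG at 221 and CACCTG at 14 bases before the start, and Cdh8 holds CAAGTG at 48. Of the 46 described genes 32 were matched in the RefSeq promoter table, and CANNTG was found in 23 of them (71.9%), against 69.3% of all 27025 genes and 66.2% of all 32851 promoters there. CAGATG, or its reverse complement CATCTG, was found in 4 of 32 (12.5%; Cdh24, Cldn1, Ctnna3, Ctnnd2) against 16.3% of all genes. CAGCTG was also found in 4 of 32 (12.5%; Cldn2, Cldn4, Cldn10, Ctnna3), against 14.7%. These matches describe letters in the windows and say nothing of binding.

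The main cadherins of islet cells did not pass the test. Cdh1 read 377, 630, 719 and 749 CPM in KO and 570, 504, 562 and 503 in Het, with KO replicate 8 the low library and the other 3 KO libraries above all Het libraries. Its log2 fold change was 0.21 ± 0.20 (edgeR adjusted p = 0.716), and 0.38 ± 0.13 without that library (adjusted p = 0.191). Cdh2 had a log2 fold change of 0.28 ± 0.18 (edgeR adjusted p = 0.570) from 73.6 to 107 CPM in KO and 58.4 to 95.9 in Het. Cdh4, R-cadherin, had a log2 fold change of 0.74 ± 0.36, and Cdh23, part of the tip links of inner-ear hair cells, one of 1.44 ± 0.66 (edgeR adjusted p = 0.414). Cdh23 read 3.28, 9.49, 18.6 and 11.5 CPM in KO and 1.16, 2.35, 3.80 and 8.52 in Het, with replicate 8 low and replicate 17 high in KO. Cdh11, a cadherin of mesenchyme, read 192, 17, 16.9 and 16.7 CPM in KO and 41.3, 33.1, 15.1 and 12.3 in Het. The KO value of replicate 8, where all 8 mesenchyme markers were highest, stood alone. With that library the log2 fold change was 1.25 ± 0.82 and without it -0.61 ± 0.38, and neither passed. The other 4 cadherins tested (Cdh3, Cdh6, Cdh24, Cdh26) lay between 0.437 and 13.5 CPM, with log2 fold changes from -1.09 to 0.60 and no call. Cdh16, a cadherin of kidney tubules, was at most 1.68 CPM.

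The abundant catenins Ctnna1, Ctnnb1 and Ctnnd1 varied by 8.97% to 14.0% over the libraries, and Ctnnd2, Ctnna2 and Ctnna3 by 32.8% to 51.2%. Ctnnb1 read 1388, 1174, 1403 and 1428 CPM in KO and 1359, 1296, 1124 and 1084 in Het, with a log2 fold change of 0.15 ± 0.14 (edgeR adjusted p = 0.702). Ctnna1, alpha-catenin, read 252, 248, 284 and 259 CPM in KO and 224, 241, 243 and 211 in Het. Its groups did not overlap, yet the difference was small, at 0.18 ± 0.11 on the log2 scale (edgeR adjusted p = 0.557). Ctnnd1 had a log2 fold change of 0.20 ± 0.14 and Ctnnd2, its neural relative, one of -0.05 ± 0.35. Ctnna2 and Ctnna3 were low, at 0.177 to 8.45 CPM, with log2 fold changes of 0.40 and -0.23.

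Of the tight junction partners, Ocln (occludin) read 38.4, 63.4, 55.0 and 53.7 CPM in KO and 40.2, 32.1, 48.8 and 29.8 in Het. KO replicates 9, 17 and 24 lay above all Het libraries, and KO replicate 8 within their range. Occludin had a log2 fold change of 0.48 ± 0.21 (edgeR adjusted p = 0.406). Tjp1, the main zonula occludens scaffold, had a log2 fold change of 0.26 ± 0.18 (edgeR adjusted p = 0.589), from 269 to 452 CPM in KO and 275 to 359 in Het. Tjp3, another scaffold, had a log2 fold change of 0.83 ± 0.43 and F11r one of -0.07 ± 0.21.

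Among the connexins, Gjd2 couples beta cells electrically. It read 147, 192, 201 and 223 CPM in KO and 238, 177, 182 and 122 in Het, so the groups lay on top of each other. Its log2 fold change was 0.08 ± 0.20 (edgeR adjusted p = 0.909). Over the same libraries the summed level of 12 endocrine markers was 19391 to 38443 CPM in KO and 59969 to 84677 in Het. The hormone genes Gcg, Ins2 and Ins1 made up most of that sum, averaging 22730, 9013 and 7188 CPM. By edgeR 4 of the 12 fell (Ins1, Ins2, Gcg and Neurod1). The other 8 were not called by edgeR, with log2 fold changes from -0.61 (Chgb) to 0.16 (Ppy). Of all 12 markers, 11 had negative values. DESeq2 called 5 lower, these 4 and Isl1, which read 241 to 387 CPM in KO and 453 to 536 in Het. The sum mostly follows the hormone genes, and the endocrine cell content of the libraries was not tested.

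The other connexins followed particular libraries. Gja1, a connexin of mesenchyme and many other tissues, read 46.6, 25.4, 7.09 and 10.1 CPM in KO and 17.1, 21.5, 13.6 and 3.85 in Het, with KO replicate 8 the highest. Gjc1, known from smooth muscle and vessel walls, read 51.3, 4.07, 4.0 and 4.76 CPM in KO and 6.87, 5.50, 2.56 and 0.304 in Het. KO replicate 8 was 12.6 times the median of the other 7 libraries. The log2 fold change of Gjc1 was 2.06 ± 1.01 with that library and 0.15 ± 0.73 without it, and that of Gja1 was 0.66 ± 0.62 and -0.01 ± 0.53. In that library all 8 mesenchyme markers were at their highest, and their part in these values was not tested beyond leaving it out. Gjb1 and Gjb2 are connexins that acinar cells of the pancreas make. Gjb1 read 5.54, 13.2, 6.56 and 2.96 CPM in KO and 8.5, 3.15, 5.56 and 3.04 in Het, and Gjb2 read 2.55, 19.7, 7.01 and 1.71 CPM in KO and 7.88, 3.59, 2.56 and 2.03 in Het. Both were highest in KO replicate 9 and next in Het replicate 6, where the summed level of 8 acinar markers was also highest, at 6408 and 5098 CPM against 1847 to 3198 in the others. Log2 fold changes were 0.48 ± 0.53 for Gjb1 and 0.94 ± 0.76 for Gjb2, and the part of acinar RNA was not tested. Gja6 was at most 0.718 CPM.

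**Figure D4:**
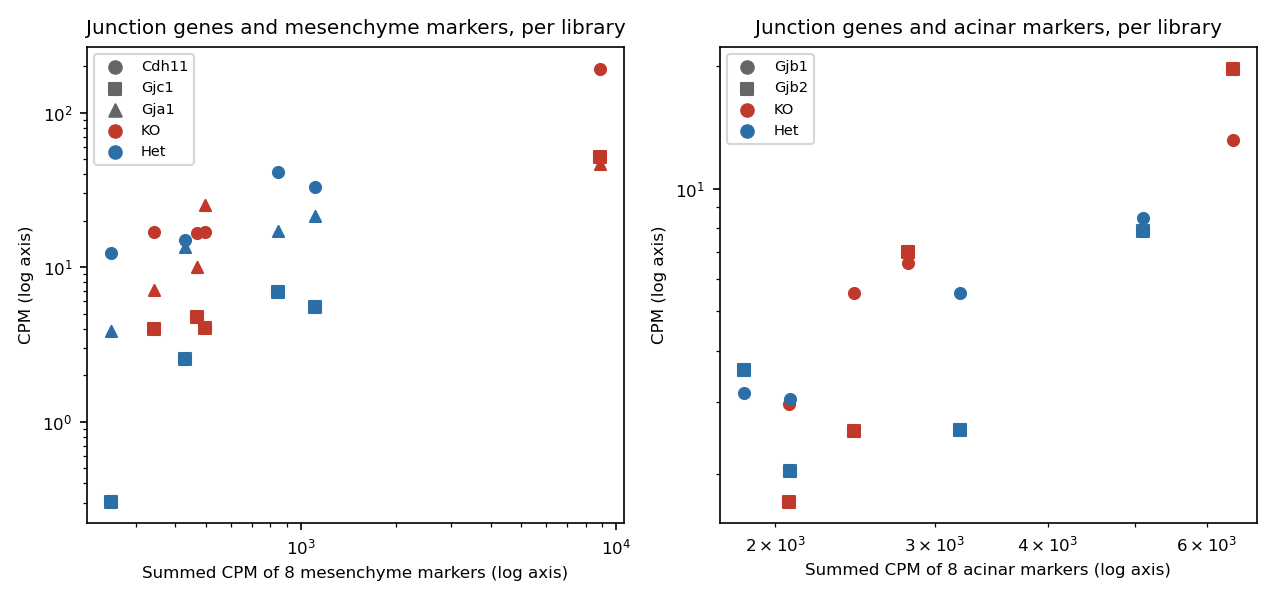
Left, CPM of Cdh11, Gjc1 and Gja1 against the summed CPM of 8 mesenchyme markers in each of 8 libraries. Right, CPM of Gjb1 and Gjb2 against 8 acinar markers (all axes log, KO red, Het blue). KO replicate 8, at 8857 CPM of mesenchyme markers, holds the top value of all 3 genes on the left, and KO replicate 9, at 6408 CPM of acinar markers, holds the top of both on the right.

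Other genes of the same junctions gave no calls with edgeR or DESeq2, and limma-voom with quality weights called 1, Dsp. At an unadjusted p under 0.05 edgeR found 0 of the tight junction, 0 of the adherens junction and 1 of the desmosome genes. The share over all genes tested was 12.2%. Of 22 further tight junction and polarity genes tested, 13 had positive and 9 negative log2 fold changes, with a median of 0.07, and the smallest p was that of Jam2, a junctional adhesion molecule (-0.97, edgeR adjusted p = 0.473). Of 10 further adherens junction genes, 7 were positive and 3 negative, led by Ncam1, a neural adhesion molecule (0.25, edgeR adjusted p = 0.435). Of 7 desmosome genes 6 were tested, 3 positive and 3 negative. Dsp, desmoplakin, which ties desmosomes to keratin filaments, read 88.2, 209, 194 and 243 CPM in KO and 84.8, 99.5, 126 and 111 in Het. KO replicates 9, 17 and 24 were above all Het libraries, KO replicate 8 lay among the Het values, and the log2 fold change was 0.80 ± 0.27 (edgeR adjusted p = 0.256). Without KO replicate 8, an alternative added after the values were seen, it was 1.02 ± 0.16 and passed (edgeR adjusted p = 0.00632). Of 3 pannexins, which form channels related to gap junctions, 2 were tested, and Panx2 had a log2 fold change of -0.62. Of 12 regulators of the epithelial-mesenchymal switch 9 were tested, 7 positive and 2 negative. Zeb2, a repressor of Cdh1, read 409 CPM in KO replicate 8 against 26.6 to 64.6 in the other 7 libraries. Its log2 fold change was 1.64 (edgeR adjusted p = 0.404) and 0.049 without that library (adjusted p = 0.958).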

How the data were processed

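RNA-seq of 4 KO and 4 Het libraries was analysed, grouped by their labels. Per the labels' protocols, sorted-cell RNA was amplified with a NuGEN Ovation V2 kit and read as single ends. Strand is not kept by that kit, so reads of overlapping genes cannot be told apart. The tools named in the submitters' processing notes are TopHat2 2.1.0, bcl2fastq 1.8.4, DESeq and Cufflinks 2.0.2, on build mm9. For the counting tool and the annotation, the name is not given in the sources used here. Counts as deposited are whole reads per gene symbol, not normalized. Per the file headers, the authors' own table holds a mean signal per group (normalized counts), its ratio as a fold change, the log2 of that ratio, and p-values with adjusted p-values. It was used only for its adjusted p.

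Counts were filtered with filterByExpr (minimum count 10, minimum total 15), scaled by TMM and tested with edgeR 4.0.16 (R 4.3.3, limma 3.58.1) by the two-sided quasi-likelihood test without covariates. Adjustment was by Benjamini-Hochberg over 14116 genes, and calls were made at 0.05. SE is the log2 fold change over the square root of F. CPM used the scaled library sizes. DESeq2 1.42.0, limma-voom with quality weights, other scalings and filters, a Y-linked and a mesenchyme covariate, and leaving out each library were alternatives. The scripts were tested on simulated data. Transcript lengths came from GENCODE M21, the longest protein-coding transcript per symbol, and 45 of 46 genes had one. Named members were those with a p under 0.05, the 4 of highest mean CPM per family, Cdh5, Gja4, Gja5 and Cdh11. From the other junction, pannexin, epithelial-mesenchymal, endocrine, duct and endothelial lists, the called genes or the smallest p are named. Mesenchyme, acinar, leukocyte and Y-linked markers are given without gene names. Some members count in the totals but are not reported here by name. Other genes, Tek and Emcn among them, fall outside the naming rule and are named where a library or level stood out. The members and lists were chosen with earlier results of these data known. Every per-sample column was matched to a label.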

Additional observations from a re-analysis of the deposited data

Results flagged for a closer look

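Within each group of 4 libraries, the highest or lowest value was compared with the rest, by its gap to the nearest library relative to the whole range. Of 92 groups (46 genes in KO and in Het) 8 had a library standing apart, where normally distributed values would give about 1 in 20. CPM values from few reads need not be so distributed. The share over all genes was not computed, so the count is not a trait of junction genes. In KO replicate 8, Cdh11 was high at 192 CPM (16.7 to 17 in the other KO libraries), Gjc1 at 51.3 (4.0 to 4.76) and Cldn1 at 11 (0 to 1.53), and Cdh24 was low at 3.79 (7.28 to 7.54). The summed mesenchyme markers were also highest in that library. In KO replicate 9, Cldn18, a claudin of stomach and lung, was high at 18.3 CPM (1.71 to 3.39) and Ctnnb1 was low at 1174 (1388 to 1428). In Het replicate 6, Ctnna2 was low at 0.927 CPM (5.17 to 5.74) and Gja6 was at 0 (0.608 to 0.707).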

How the results depend on the processing

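Over all genes, 144 calls became 585 with DESeq2, 500 with limma-voom and quality weights, 28 with a Y-linked covariate, 567 with a mesenchyme covariate and 29 to 285 on leaving out each library in turn (285 without KO replicate 8). The 1 called member became 2 with DESeq2, 3 with limma-voom, 0 with no count filter, 0 with the Y-linked covariate and 4 with the mesenchyme covariate (Cdh23, Cdh8, Cldn3, Cldn5), and 0 to 2 without each library. Higher calls were 2, 0, 0 and 3 with limma-voom, no filter, the Y-linked and the mesenchyme covariate, and 0 to 1 without each library. Lower calls were 1 with DESeq2, limma-voom and the mesenchyme covariate, and 0 to 1 without each library. Leaving out KO replicate 8 with a Y-linked covariate, chosen after seeing the data, gave 0 higher and 1 lower (Cdh8). Causes were not tested.

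Among the members run under every alternative, these uncalled log2 fold changes reversed. Where leaving out each library in turn reversed a value, the range is also given. Cdh11 was -0.21 with the mesenchyme covariate, -0.61 without KO replicate 8 and -0.70 with the Y-linked covariate added (-0.61 to 1.58). Ctnnd2 was 0.0013 with total counts, 0.017 with the mesenchyme covariate, and 0.14, 0.0028 and 0.085 without KO replicate 9, Het replicate 7 and Het replicate 19 (-0.30 to 0.14). Cldn6 was 0.014 and Cldn7 0.11 with limma-voom, and Cldn7 was 0.029 with total counts and 0.013 and 0.089 without KO replicate 9 and Het replicate 6 (-0.12 to 0.089). Cldn12 was 0.034 without Het replicate 7 (-0.25 to 0.034). Gjd2 was -0.012 and -0.068 without KO replicate 24 and Het replicate 19 (-0.068 to 0.25). Gja1 was -0.18 with the Y-linked covariate, -0.0066 without KO replicate 8 and -0.51 with both (-0.0066 to 0.94). Gjc1 was -0.0036 and Cdh5 -0.30 with both, and Cdh5 -0.32 with the Y-linked covariate. Gjb1 was -0.012 without KO replicate 9 (-0.012 to 0.85). F11r was 0.22 with limma-voom, 0.036 without KO replicate 8, 0.047 without Het replicate 6 and 0.011 with KO replicate 8 out and the Y-linked covariate (-0.20 to 0.047). Of the members refitted only without KO replicate 8, Cldn1 became -1.87 and Cdh24 0.11.

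Cldn5 and Cdh8 kept their direction under every alternative run. No paired analysis was possible because the groups share no replicate number. Genes of a few CPM rest on few reads, amplified copies count as reads, and 4 libraries a group limit what differences can pass.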

Other observations

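Cldn3 and Cldn4, neighbours on chromosome 5, were picked as a pair after their values were seen, so what follows is a description with no test. The ratio of Cldn3 to Cldn4, each in CPM per kilobase, was 3.27, 4.37, 4.22 and 4.34 in KO replicates 8, 9, 17 and 24 and 0.997, 1.04, 0.718 and 0.986 in Het replicates 6, 7, 13 and 19. The means were 4.05 ± 0.52 (SD, n = 4) in KO and 0.935 ± 0.147 in Het. Per kilobase the ratio was near parity in Het, and Cldn3 was the higher in KO. The parity rests on the transcript lengths used. Without division by length the ratio was 2.27, 3.03, 2.93 and 3.01 in KO and 0.691, 0.721, 0.498 and 0.684 in Het. The separation of the groups does not depend on the lengths. KO replicate 8, the lowest KO library for both genes, stood with the other KO libraries in the ratio. Of the 820 pairs compared, 114 (13.9%) had ratios that did not overlap between KO and Het. Of the 741 pairs without Cldn5 or Cdh8, 44 (5.94%) did not overlap. Among these the gap was widest for Cldn3 and Cldn4, at 1.65 on the log2 scale, which was rank 32 among all 820 pairs. The share over pairs of all genes was not computed, so these counts describe the listed pairs only. A widest gap found by search among these same values is no test of the pair.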
